A study of Mus musculus with 3 samples.

Results

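Libraries from cells transfected with siRNA against Irx1 (siIrx1) were compared with non-targeting siRNA controls in mouse embryonic fibroblasts early in reprogramming. The knockdown is represented by 3 of the 129 libraries with counts, siIrx1 replicates 1 to 3, chosen by their column names. They were set against 3 non-targeting libraries (control_nt, here nt), with 5 mock-transfected libraries (Mock) as a second control. Further references were 95 libraries of 32 other siRNAs, and the untransfected Day06 and Day00 libraries of the time course, 3 each. All cells were primary fibroblasts of the BL6 strain at passage 2, transduced with lentivirus carrying rtTA and the tet-STEMCCA cassette (Oct4, Sox2, Klf4 and c-Myc). Reprogramming used 2 µg/mL doxycycline, 3 µM chiron, 0.25 µM Alk5i, 50 µg/mL ascorbic acid and LIF. Cells transfected with siRNA had received 40 nM of pooled siRNA with a lipid reagent before doxycycline, and the screen was read at day 6. RNA was profiled by CEL-Seq2, which here counted transcript 3′ ends in bulk RNA through unique molecular identifiers. The viral cassette is expressed in a mixed population in which only some cells reprogram, and in bulk RNA fewer cells of a type cannot be told apart from less RNA per cell. Each siRNA was transfected in triplicate per the study, and the labels place the barcoded libraries of a replicate number in one sequencing file, here called a pool. Pools 1 and 2 each hold a pair of Mock columns under the same name, and the labels do not say whether each pair came from separate transfections, so p-values against Mock may measure technical spread in part.

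Irx1 encodes a homeodomain transcription factor of the Iroquois family, which has the TALE type of homeodomain. Iroquois factors are known for patterning the nervous system, heart and limb, and they are found in 2 genomic clusters, with Irx1, Irx2 and Irx4 in one and Irx3, Irx5 and Irx6 in the other. The siRNAs are shown first because they define what was knocked down. The siRNA library lists 2 for Irx1, whose guide strands are printed 5′ to 3′ with the seed, bases 2 to 8 of the guide, in capitals and the overhang as its last 2 letters.
siRNA 1: aUCUGAUCgaugucaaugctc
siRNA 2: gAUGUCAAugcucuccaggtc
Both guides matched coding sequence in exon 2 of Irx1, on the minus strand of chromosome 13 in GRCm38 (GENCODE vM21), where the gene spans chr13:71957921-71963723. The site of siRNA 1 lies at chr13:71959864-71959882 and that of siRNA 2 at chr13:71959872-71959890. The target sites, with the 11 bases that both siRNAs cover in capitals, read as follows.
siRNA 1 site: GCATTGACATCgatcagat
siRNA 2 site: cctggagaGCATTGACATC
No transcript of another gene in that annotation held either 19-base site. The seeds of the overlapping siRNAs differ. The study pooled 3 siRNAs per target, and any further siRNA for Irx1 was not analysed here.

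Irx1 itself was near the limit of detection, so the knockdown could not be verified from these counts. The siIrx1 libraries held 1, 0 and 0 counts of Irx1, the nt libraries 0, 0 and 3, and each of the 5 Mock libraries 0. The other siRNA libraries held 64 counts in all, with at least 1 count in 43 of 95 libraries. From the share of Irx1 among counts of control and other siRNA libraries in each pool, 2.38 counts were expected in siIrx1 and 1 was found, a ratio of 0.421 with an exact 95% Poisson interval of 0.0107 to 2.34. This interval covers counting error only. It holds no change as well as a near complete loss, and Irx1 did not pass the filter on low counts. In the time course Irx1 had 3 counts at Day00 and 4 at Day06.

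The other Iroquois genes were sparse too. Irx2 had 6 counts in siIrx1, 8 in nt and 7 in Mock. Irx3 had 6, 2 and 5 counts in the same order, and Irx5 had 4, 3 and 3. Irx4 had a single count over all libraries, in siIrx1 replicate 2, and Irx6 had none in these 3 groups. None of the Iroquois genes passed the filter on low counts, so no difference within the family was tested.

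Against nt, 61 of 3013 genes tested differed at an adjusted p under 0.05 (edgeR quasi-likelihood test, Benjamini-Hochberg), which is 2.02%. Of these, 13 were higher in siIrx1 (0.431% of genes tested) and 48 lower (1.59%). Against Mock, 38 genes differed (1.26%), 3 higher and 35 lower. Against the mean of the 32 other siRNAs, 41 genes differed (1.36%), 17 higher (0.564%) and 24 lower. The siIrx1 libraries did not overlap the nt libraries in CPM for 13 of the 13 higher genes and 39 of the 48 lower ones, where 7.67% of all tested genes lay wholly above nt and 7.27% wholly below. They did not overlap Mock for 1 of the 13 and 10 of the 48, beside 2.09% above and 1.83% below. The 3 genes higher than Mock were Sparc, Ifitm3 (interferon-induced, 1.02 ± 0.27) and Lxn (a carboxypeptidase inhibitor, 2.76 ± 0.70). The 10 genes lower in all 3 comparisons were mt-Nd1, mt-Nd2, mt-Nd4, mt-Nd5, mt-Rnr1, mt-Rnr2, Hsp90aa1, Rps3a2, Gm26384 and Gm42418. No gene was higher in all 3. The comparisons share the siIrx1 libraries, so that an unusual siIrx1 library enters each of them. The Mock and nt libraries themselves differed in 47 genes (1.56%), 31 higher in Mock (1.03%) and 16 lower (0.531%). By number of genes called against nt, siIrx1 was rank 8 of 33 siRNAs, which ranged from 4 to 821 with a median of 31.

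The counts rested on few libraries. Against nt, 39 genes were called without siIrx1 replicate 2, 28 without siIrx1 replicate 3 and 27 without nt replicate 3. With nt replicate 3 left out, 0 genes were called higher (edgeR), where 320 genes in either direction had an unadjusted p under 0.05. Leaving out all libraries of a pool gave 39, 32 and 13 genes for pools 1, 2 and 3. Without the replicate block 3 genes were called, Hsp90aa1, mt-Nd1 and mt-Rnr1, all lower in siIrx1. limma on the deposited log2 values called 0 genes, with 581 at an unadjusted p under 0.05. Against Mock, 23 genes were called without siIrx1 replicate 2 and 16 without siIrx1 replicate 3. Against the other siRNAs, 9, 14 and 15 genes were called without siIrx1 replicates 1, 2 and 3. The split of calls against nt by direction also moved. RLE size factors in edgeR gave 18 higher and 41 lower, nt and Mock together as the control 4 higher and 38 lower, and no low-count filter 0 higher and 24 lower (960 genes at an unadjusted p under 0.05). DESeq2, which differs in model and size factors, called 20 genes higher and 42 lower, and edgeR without the mitochondrially encoded genes, 6 of which were among the lower calls, called 17 higher and 33 lower. Against the other siRNAs, edgeR without those genes called 19 higher and 12 lower.

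Of the 29 genes named by rule, mt-Nd1, mt-Nd5, mt-Rnr1, mt-Rnr2, Pgk1 and Rpl27a kept their call against nt without any single siIrx1 or nt library. Calls lost without siIrx1 replicate 1 were those of Ctsl, Cyb5r3, Gnai2, mt-Nd2, mt-Nd4, Psip1, Rpl13a and Rplp0. Without siIrx1 replicate 2, Cdkn1a, Ctsl, Cyb5r3, Eif1ax, Farsb, Gnai2, mt-Nd4, Mrpl42, Oaz1, Psap, Psip1, Rpl13a and Sparc were lost. Without siIrx1 replicate 3, Bnip3, Bzw2, Col1a1, Ctsl, Eif1ax, Farsb, Gnai2, Mir703, Mphosph8, Mrpl42, mt-Nd4, Oaz1, Psap, Psip1, Rpl13a, Rpl36a and Rplp0 were lost. Leaving out nt replicate 1 ended the calls of Cdkn1a, Gnai2, mt-Nd4, Psap, Psip1, Rpl13a, Rplp0 and Sparc. Leaving out nt replicate 2 ended those of Cdkn1a, Cyb5r3, Gnai2, Mphosph8, mt-Nd2, Mrpl42, Oaz1, Rpl13a and Rplp0. Leaving out nt replicate 3 ended those of Cdkn1a, Col1a1, Ctsl, Cyb5r3, Eif1ax, Farsb, Gnai2, Igf2, Mir703, Mrpl42, mt-Nd4, Mt2, Oaz1, Psap, Psip1, Rpl13a, Rpl36a, Rplp0 and Sparc.

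Transcripts of the mitochondrial genome took a smaller share of counts in siIrx1 than in either transfection control. Mitochondrial DNA encodes subunits of the respiratory chain and ATP synthase and the 2 ribosomal RNAs of the organelle, and it is read as long precursors from which the single RNAs are cut. The share was 18.5%, 17.6% and 15.4% of counts in siIrx1 replicates 1 to 3, and 26.3%, 24.4% and 22.8% in the nt libraries of the same pools. The 5 Mock libraries ranged from 22.9% to 28.6%. The siIrx1 libraries lay below every nt and Mock library, without overlap. The mean difference from nt was -7.33 percentage points, with a two-sided exact permutation p of 0.1, the smallest that 3 libraries against 3 allow. From Mock it was -8.76 percentage points, with an exact permutation p of 0.0179, also the smallest possible there. With the Mock libraries of a pool averaged first, an alternative chosen after seeing the data, the difference was -8.24 percentage points (exact permutation p = 0.1, the smallest possible), and within pools 1 to 3 it was -9.36, -7.95 and -7.42. The share was examined after it had been seen to differ.

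**Figure D1:**
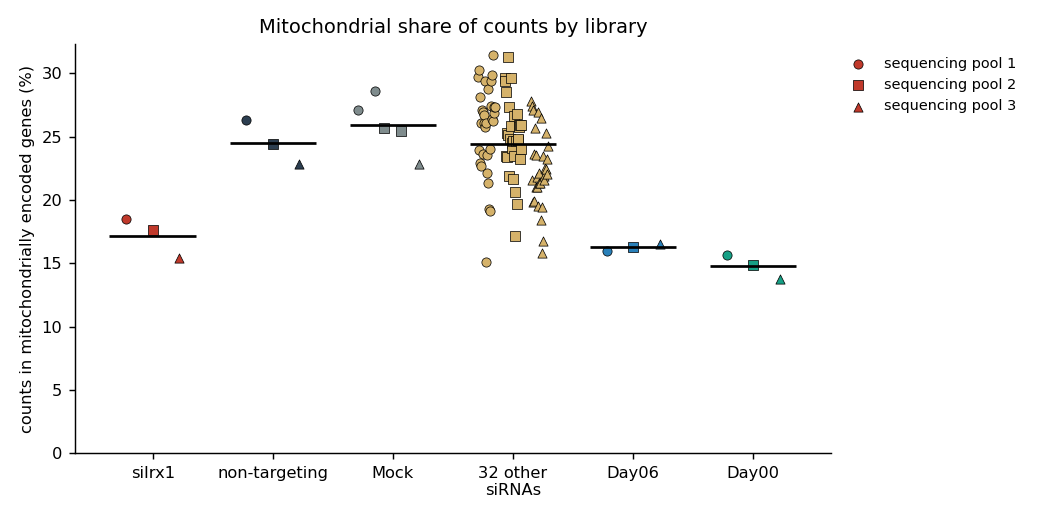
Share of counts in mitochondrially encoded genes (vertical axis, %) for each library, by group, with symbols for the sequencing pool and lines for group means. The 3 siIrx1 libraries, 15.4% to 18.5%, sit below all nt and Mock libraries and near the Day06 libraries.

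Among siRNA libraries of their pool, those of siIrx1 ranked 2 of 33, 2 of 33 and 1 of 32 from the lowest mitochondrial share. The siIrx1 mean of 17.2% ± 1.58 (SD, n = 3) was the lowest of 33 siRNAs, followed by siBptf at 17.4% ± 1.76 (SD, n = 3) and siBrca1 at 18.5% ± 1.55 (SD, n = 3). The siIrx1 and siBptf means differed by less than their spread. Untransfected Day06 libraries had 16.3% ± 0.287 (SD, n = 3), and siIrx1 exceeded them by 0.909 percentage points (two-sided exact permutation p = 0.4, where 0.1 is the smallest possible). In total counts siIrx1 was deeper than nt in pool 1 (109589 against 75100) and shallower in pool 2 (65473 against 80136) and pool 3 (132654 against 143156). Genes detected numbered 10159, 8637 and 10856 in siIrx1 and 8402, 8801 and 10313 in nt, and siIrx1 replicate 1 had the most of its pool's 33 siRNA libraries. The part of library complexity in the mitochondrial share was not tested.

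Of the 15 mitochondrially encoded genes, all tested, 6 were lower in siIrx1 than in nt, and none was higher, with 1.59% of all genes tested called lower. Their median log2 fold change was -0.26, beside 0.03 over all genes. Against Mock 10 were lower, beside 1.16% of all genes, and against the other siRNAs 7 were lower, beside 0.797%. The count against Mock was 6 without siIrx1 replicate 1 and 6 without siIrx1 replicate 2. Without the replicate block, 2 of the 15 were lower than nt, 5 lower than Mock and 3 lower than the other siRNAs. The limma fit to the deposited log2 values called 0 of the 15 against any of these references, with a median of -0.02 from nt.

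The ribosomal RNAs mt-Rnr1 and mt-Rnr2 showed the largest differences from nt among the 15. mt-Rnr1, the small-subunit rRNA (chrM:70-1024), was at 37798, 33568 and 33012 CPM (counts scaled to a common library size) in siIrx1 and at 68344, 60766 and 77388 CPM in nt. In Mock mt-Rnr1 ranged from 65260 to 84840 CPM, above all siIrx1 libraries. Its log2 fold change was -0.98 ± 0.15 against nt (SE, adjusted p = 8.58e-07), -1.09 ± 0.14 against Mock and -0.88 ± 0.12 against the other siRNAs. mt-Rnr2, the large-subunit rRNA (chrM:1094-2675), was at 59094, 43991 and 37431 CPM in siIrx1 and at 105430, 85323 and 76008 CPM in nt. Every siIrx1 library again lay below every nt and Mock library. The log2 fold change of mt-Rnr2 was -0.93 ± 0.16 against nt (adjusted p = 6.30e-06) and -1.17 ± 0.15 against Mock.

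Genes for subunits of respiratory complex I followed, and these called genes encode parts of its membrane arm. mt-Nd1 (chrM:2751-3707), which lies next to mt-Rnr2, was at 18919, 18824 and 15306 CPM in siIrx1 and at 34888, 32933 and 25725 CPM in nt. The Mock libraries, at 23256 to 33985 CPM, did not overlap siIrx1 either, where the log2 fold change of mt-Nd1 from nt was -0.81 ± 0.12 (adjusted p = 6.00e-07). mt-Nd5 was at 8746, 10343 and 6687 CPM against 16803, 18007 and 10873 CPM in nt, a log2 fold change of -0.81 ± 0.14 (adjusted p = 6.30e-06), and its Mock libraries, from 9150 CPM, overlapped siIrx1. mt-Nd2 fell by 0.55 ± 0.14 and mt-Nd4 by 0.43 ± 0.12 on the log2 scale, and for mt-Nd2 the siIrx1 and nt libraries overlapped. The call for mt-Nd4 against nt was also lost with RLE size factors. mt-Rnr1 and mt-Nd1 were called against nt in 17 of the 18 alternatives that kept them, the exception being the limma fit to the deposited log2 values.

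The other 9 mitochondrially encoded genes did not pass against nt. mt-Co2, mt-Co3, mt-Atp8 and mt-Nd3, which encode oxidase, ATP synthase and complex I subunits, had log2 fold changes from nt of 0.04, 0.07, 0.29 and 0.19. mt-Co1, the catalytic oxidase subunit, was at -0.40 ± 0.13 against nt (adjusted p = 0.0735) and passed against Mock (-0.50) and against the other siRNAs (-0.59). mt-Atp6, mt-Co3 and mt-Nd4l were lower than Mock only, by 0.48, 0.49 and 1.16 on the log2 scale. The controls themselves differed in mt-Co3 (0.56 higher in Mock than nt, adjusted p = 0.000831) and mt-Nd4l (1.01 higher, adjusted p = 0.00111). Differences between mitochondrial genes within siIrx1 were not tested.

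**Figure D2:**
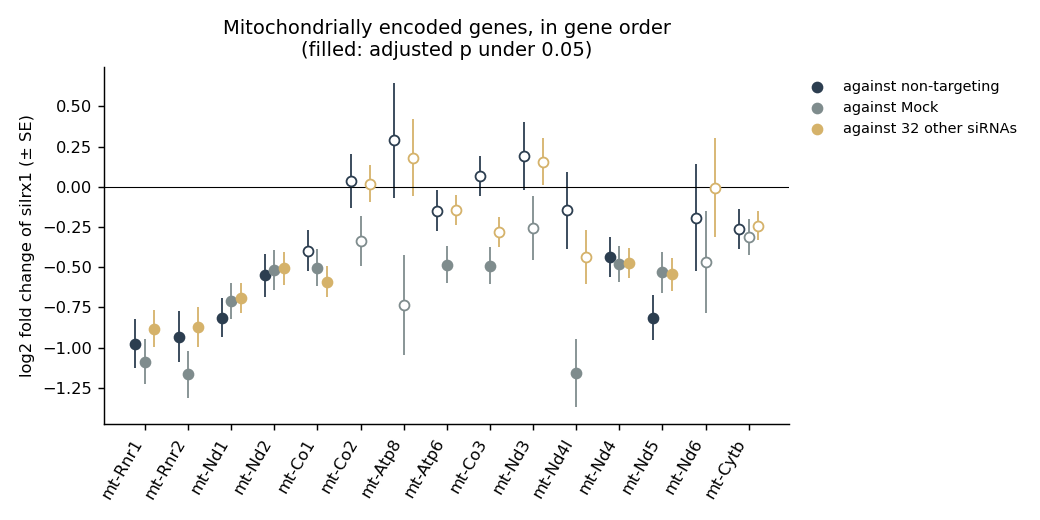
Log2 fold change (± SE) of siIrx1 for the 15 mitochondrially encoded genes in their order along the mitochondrial chromosome, against nt, Mock and the mean of 32 other siRNAs (filled: adjusted p under 0.05). mt-Rnr1, mt-Rnr2, mt-Nd1, mt-Nd2, mt-Nd4 and mt-Nd5 are filled for all 3 references, and the genes from mt-Co2 to mt-Nd3 lie near 0 against nt.

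For nuclear genes of the respiratory chain and ATP synthase, the summed level was 13459 to 15251 CPM in siIrx1, 11830 to 14223 CPM in nt and 12189 to 15328 CPM in Mock, and the groups overlapped. Of 50 tested, none was called against nt or Mock (edgeR), and their median log2 fold change from nt was 0.10. Ndufa4, which encodes a subunit associated with cytochrome c oxidase, was higher than in the other siRNAs (0.52 ± 0.13, adjusted p = 0.0158). It missed the threshold against nt (0.59, adjusted p = 0.0963), and its value against Mock was -0.07.

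Among nuclear genes higher than nt, extracellular matrix genes of fibroblasts were represented by Col1a1 and Sparc. Col1a1 (chr11:94936224-94953042), a chain of type I collagen, was at 337, 402 and 461 CPM in siIrx1 and at 166, 209 and 139 CPM in nt. Its log2 fold change was 1.27 ± 0.30 (adjusted p = 0.00494). The Mock libraries of Col1a1, from 49.6 to 343 CPM, overlapped siIrx1 (0.92, adjusted p = 0.105). Sparc (chr11:55394500-55423183), which encodes a collagen-binding matrix glycoprotein, was at 664, 948 and 680 CPM in siIrx1, 400, 479 and 359 CPM in nt and 358 to 519 CPM in Mock. Its siIrx1 libraries lay above every library of both controls. Sparc was higher than nt by 0.87 ± 0.22 (adjusted p = 0.0109) and than Mock by 0.82 ± 0.22 (adjusted p = 0.0209), and it was the only one of the 13 genes also called against Mock. Against the other siRNAs its value was 0.26 ± 0.14 (adjusted p = 0.525), with other siRNA libraries from 284 to 1860 CPM.

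These genes belong to a list of 33 tested fibroblast and mesenchymal genes, of which 2 were called higher, beside 0.431% of all genes, and none lower. Their log2 fold changes from nt were positive for 27 and negative for 6, with a median of 0.54, beside 0.03 over all genes. Against Mock and the other siRNAs the medians were 0.13 and 0.20. The summed level of the list was 10708 to 11644 CPM in siIrx1, 9288 to 11774 CPM in nt and 9329 to 12452 CPM in Mock, so siIrx1 overlapped both controls. In Day06 it was 13232 to 17389 CPM. Acta2, Tagln and Myl9, contractile genes, had log2 fold changes from nt of 1.36, 3.17 and 3.18 with adjusted p of 0.0897, 0.104 and 0.0765, and Tagln and Myl9 had 1 count each over all nt libraries. None of 21 contractile genes tested was called against nt or Mock (edgeR), with a median of 0.54 from nt and 0.38 from Mock. The summed contractile level, 5107 to 5429 CPM in siIrx1, overlapped nt (3774 to 5262 CPM) and Mock (4060 to 5548 CPM).

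Igf2, Cdkn1a, Psap, Cyb5r3, Gnai2 and Oaz1 were also higher than nt. Igf2, an imprinted growth factor gene, was at 267, 305 and 227 CPM in siIrx1 and at 99.9, 89.7 and 73.5 CPM in nt, a log2 fold change of 1.61 ± 0.38 (adjusted p = 0.00477). In Mock Igf2 spread from 68.7 to 317 CPM and so covered both groups. Cdkn1a, which encodes the cell cycle inhibitor p21 and is a p53 target, was at 674, 915 and 532 CPM against 383, 404 and 343 CPM in nt (0.85 ± 0.23, adjusted p = 0.0158). The Mock libraries of Cdkn1a ran from 254 to 800 CPM and overlapped both. Cdkn1a was the 1 of 12 p53 targets tested that was called, beside 0.431% of all genes called higher. Psap, which encodes the precursor of lysosomal saposins, rose by 1.78 ± 0.50 on the log2 scale where nt libraries held 2, 4 and 4 counts. Cyb5r3 (a reductase of cytochrome b5), Gnai2 (a G protein alpha subunit) and Oaz1 (a regulator of polyamine synthesis) were higher than nt by 1.44, 1.06 and 0.93. Against Mock, Psap, Cyb5r3, Gnai2 and Oaz1 were at 0.59, 0.43, 0.34 and 0.20, and none passed. Mock itself stood above nt by 1.20, 1.01, 0.72 and 0.73 in the same order, not called.

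Mrpl42, Rpl36a and Rpl13a, genes for ribosomal proteins of the mitochondrion and the cytoplasm, completed the named higher genes. Mrpl42 was at 257 to 321 CPM in siIrx1, 89.7 to 147 CPM in nt and 248 to 309 CPM in Mock, so that siIrx1 and Mock overlapped and nt stood below both, and Mock itself was called higher than nt (1.21, adjusted p = 0.0381). Its log2 fold change was 1.23 ± 0.33 from nt (adjusted p = 0.0159) and 0.02 from Mock. Rpl36a was higher than nt (1.16 ± 0.28, adjusted p = 0.00523) and than the other siRNAs (0.84 ± 0.18, adjusted p = 0.000928). Rpl13a was higher than nt by 1.00 ± 0.30 (adjusted p = 0.0468). Against Mock, Rpl36a and Rpl13a were at 0.45 and 0.40, and neither passed.

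**Figure D3:**
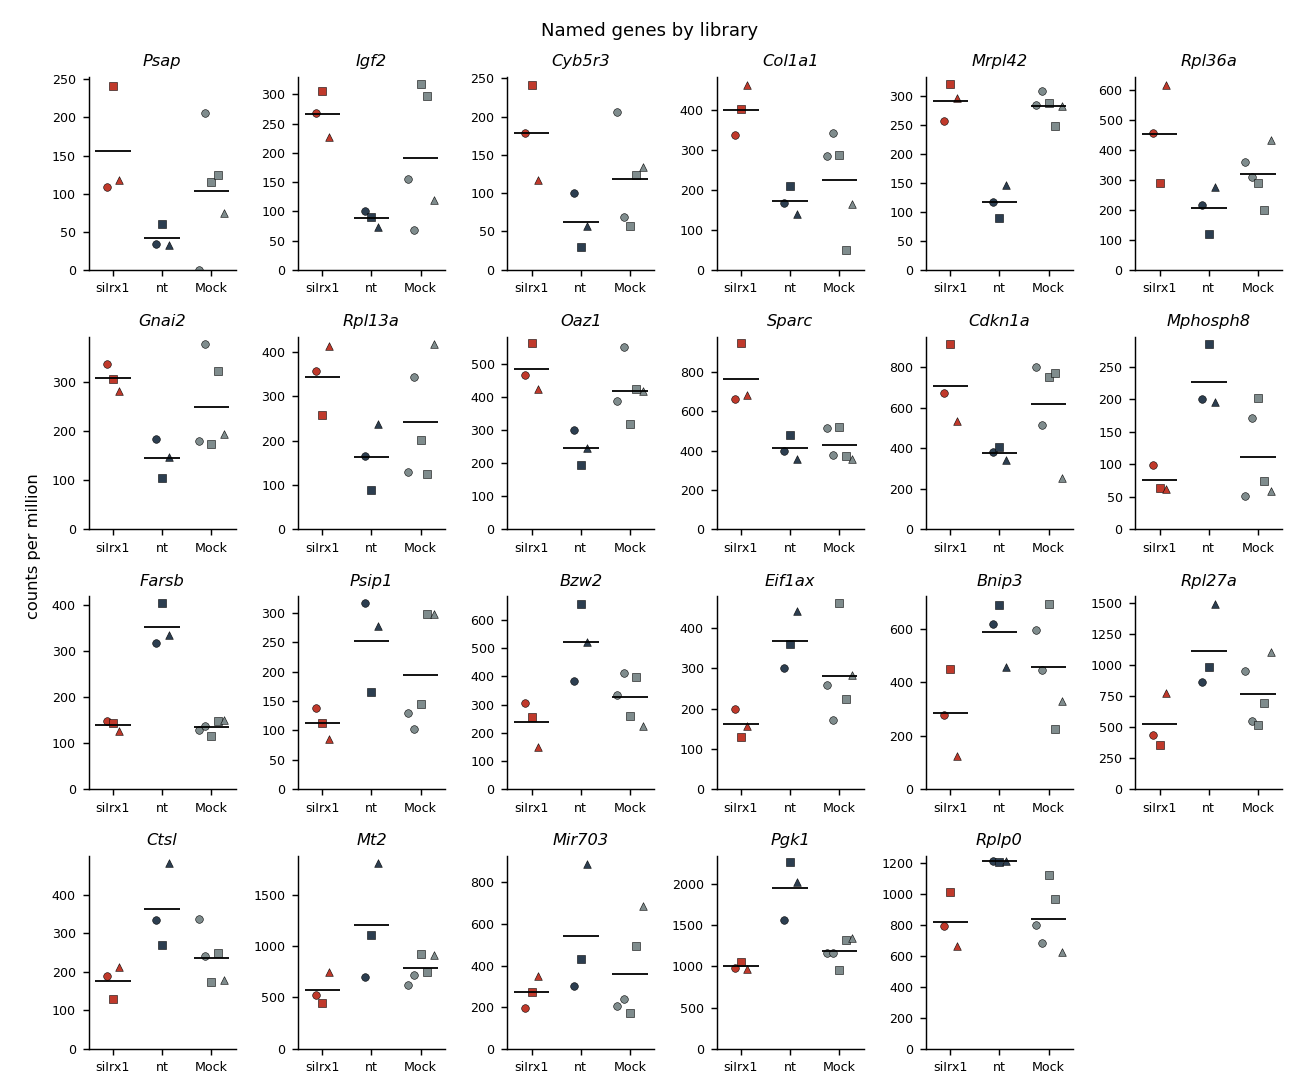
CPM of the named nuclear genes in each siIrx1, nt and Mock library (symbols: sequencing pool, lines: group means, axes from 0). Sparc is the higher gene whose siIrx1 libraries clear both controls. For Mrpl42 and Farsb the Mock libraries sit with siIrx1 and away from nt.

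Among the nuclear genes lower than nt, Pgk1 and Bnip3 belong to the list for glycolysis and low oxygen. Pgk1, the ATP-generating kinase of glycolysis, was at 981, 1060 and 970 CPM in siIrx1 and at 1565, 2273 and 2026 CPM in nt, a log2 fold change of -0.94 ± 0.18 (adjusted p = 7.83e-05). Its Mock libraries, at 951 to 1343 CPM, overlapped siIrx1 and lay below nt, and Pgk1 was itself called lower in Mock than in nt (-0.70, adjusted p = 0.00771). Bnip3, a mitophagy receptor gene induced by low oxygen, was at 277, 450 and 125 CPM against 616, 688 and 457 CPM in nt (-1.15 ± 0.27, adjusted p = 0.00351), while Mock ranged from 223 to 692 CPM. Of 14 tested genes of the list these 2 were lower, beside 1.59% of all genes, and none was higher. The median of the list was -0.37 from nt and -0.21 from Mock. Its other members included Tpi1, Gapdh and Ldha at -0.60, -0.68 and -0.28 from nt, none past the test. Over the 14 genes the log2 fold change from nt was negative for 11 and positive for 3.

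Hsp90aa1 was the protein-coding nuclear gene lower against all 3 references. Hsp90aa1, the inducible cytosolic HSP90 chaperone, was at 6914, 6489 and 5928 CPM in siIrx1, 11191, 9362 and 9738 CPM in nt and 8100 to 9511 CPM in Mock. No siIrx1 library reached any control library. Its log2 fold change was -0.65 ± 0.13 from nt (adjusted p = 0.00028), -0.49 ± 0.12 from Mock and -0.35 ± 0.10 from the other siRNAs. Npm1, the nucleolar chaperone nucleophosmin, was lower than nt (-0.48 ± 0.14) and than Mock (-0.47 ± 0.13). Malat1, an abundant nuclear long non-coding RNA, was at 932 to 1476 CPM in siIrx1, below the 1511 to 2288 CPM of nt and the 1614 to 2209 CPM of Mock, and was called against nt only (-0.64).

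Other named lower genes included Farsb, Eif1ax and Bzw2 of translation and Mphosph8 and Psip1 of chromatin. Farsb, a subunit of phenylalanyl-tRNA synthetase, was at 125 to 149 CPM in siIrx1, 316 to 404 CPM in nt and 115 to 149 CPM in Mock. It differed from nt by -1.29 ± 0.32 (adjusted p = 0.00678) and from Mock by 0.07, and Mock and nt differed in it (-1.36, adjusted p = 0.0096). Eif1ax, an initiation factor of translation, and Bzw2, a translation regulator, fell by 1.18 and 1.19 from nt. Their values against Mock were -0.72 and -0.42, and neither passed. Mphosph8, which binds methylated histone H3 in gene silencing, fell by 1.53 ± 0.39 from nt, where Mock at 51.6 to 202 CPM overlapped both groups. Psip1, a chromatin-binding coactivator gene, was at 139, 112 and 86.0 CPM against 316, 165 and 278 CPM in nt (adjusted p = 0.0411). Ctsl, a lysosomal protease, fell by 1.04, and Mt2, a metallothionein, by 1.03 (adjusted p = 5.06e-05). Against Mock, Psip1, Ctsl and Mt2 were at -0.95, -0.37 and -0.45, and none passed. Mt2 was lower than in the other siRNAs (-0.56 ± 0.15, adjusted p = 0.0208). The annotated microRNA locus Mir703 was lower as well (-1.02 ± 0.24), and counts of 3′ ends of polyadenylated RNA at it do not measure a mature microRNA.

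Processed pseudogenes were among the lower calls. Of the 48 lower genes, 21 were annotated as processed pseudogenes and 19 as protein-coding, and 1 was not matched to GENCODE vM21. Of all 3013 genes tested, 15.5% were processed pseudogenes and 80.8% protein-coding. Most were near-identical copies of a few abundant genes, at 95% identity or more over 150 bases or more, so that reads can be split between copy and source and neither value is certain. 6 of them were copies of Rpl27a, which encodes a protein of the large ribosomal subunit. Rpl27a was at 436, 353 and 774 CPM in siIrx1 and at 866, 987 and 1495 CPM in nt, a log2 fold change of -1.09 ± 0.19 (adjusted p = 8.89e-06). Its copies Gm14044, Gm5453, Gm7536, Gm8213, Gm8451 and Rpl27a-ps1 had log2 fold changes from nt between -1.30 and -0.81. Rpl27a was also lower than in the other siRNAs (-0.73 ± 0.15, adjusted p = 0.00037), and its value against Mock was -0.66. Other named genes have such copies too, among them Bzw2 (8), Rpl36a (7), Pgk1 (4), Bnip3 (3) and Rpl13a (2). Their reads can be split in the same way.

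Copies of Gapdh, Hsp90aa1 and Npm1 were called beside those of Rpl27a. The 5 copies of Gapdh, Gm10290, Gm10327, Gm12537, Gm5523 and Gm5787, had log2 fold changes from nt of -2.77 to -1.63 from few counts, and Gm5787 had 0, 1 and 2 counts in the siIrx1 libraries against 6, 7 and 7 in nt. Gapdh was at -0.68 ± 0.30 and did not pass. The copies of Hsp90aa1, Gm12346 and Gm5844, and of Npm1, Gm14681 and Gm5611, moved the way of their source. Gm42418, a locus on chromosome 17 overlapped on the other strand by AY036118, from which its reads may not be separable, was lower than nt (-0.84), Mock (-0.79) and the other siRNAs (-0.82).

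**Figure D4:**
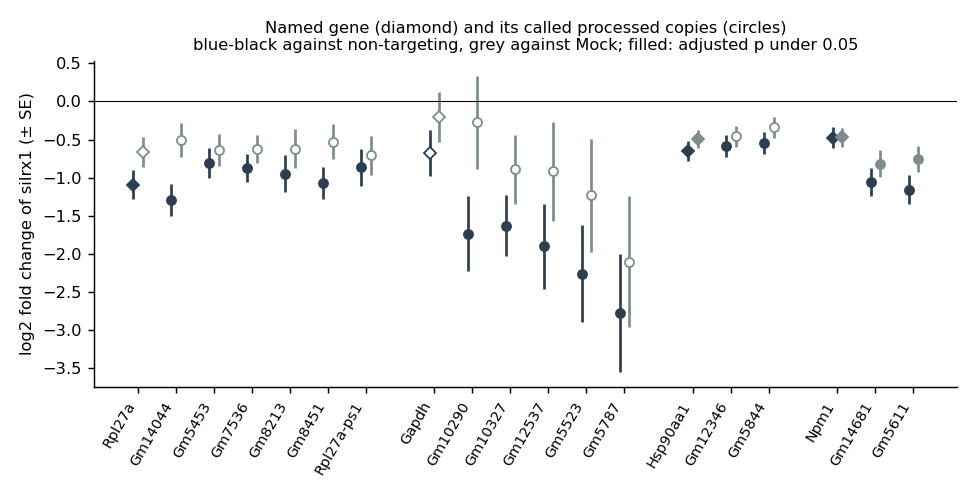
Log2 fold change (± SE) of siIrx1 against nt and Mock for Rpl27a, Gapdh, Hsp90aa1 and Npm1 (diamonds) and their called processed copies (circles), filled where the adjusted p was under 0.05. Members of a family lie on the same side of 0 against nt, and fewer are filled against Mock.

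Cytoplasmic ribosomal protein genes were called in both directions against nt. Of 69 tested, Rpl36a and Rpl13a were higher than nt and Rpl27a and Rplp0 lower, beside 0.431% and 1.59% of all genes, with a median of 0.04. Rplp0, a stalk protein gene, was at 792, 1012 and 665 CPM in siIrx1 and 1216, 1211 and 1217 CPM in nt (-0.59 ± 0.17, adjusted p = 0.0369), and its log2 fold change from Mock was -0.03. Against Mock, 3 were lower, beside 1.16% of all genes, and none was higher.

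Markers of reprogramming were too sparse to place the knockdown. The annotated genes of the 4 cassette factors, Pou5f1, Sox2, Klf4 and Myc, had 1, 0, 3 and 3 counts in siIrx1 and 4, 3, 3 and 2 in nt. None was tested. Counts of 3′ ends at these genes do not measure expression of the viral cassette. Of 28 pluripotency genes 2 were tested, L1td1 (-1.36 ± 0.66) and Apela (0.52 ± 0.48), and of 27 epithelial genes 1, Perp, at 0.34 ± 0.37, and none passed. No gene of the S phase (11 tested), G2/M (27), interferon (4), sterol and fatty acid synthesis (13) or ATF4 and ER stress (19) lists was called against nt (edgeR). The G2/M median was -0.24 from nt and 0.13 from Mock. Of the fibroblast markers, Vim averaged 707 CPM in siIrx1 and 630 CPM in nt, and Thy1 364 CPM and 212 CPM, so the labelled cell type was expressed in both. Markers of macrophages summed to 7.82 to 80.3 CPM in siIrx1 and 32.7 to 74.8 CPM in nt, those of endothelium to 0 to 9.91 CPM and 0 to 33.3 CPM, and those of skeletal muscle to 31.3 to 64.2 CPM and 44.9 to 133 CPM. Listed neural markers summed to 219 to 305 CPM in siIrx1 and 179 to 221 CPM in nt, and keratinocyte markers to 337 to 391 CPM and 366 to 568 CPM. In each of these 5 lists the siIrx1 and nt libraries overlapped.

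Genes that carry a match to an siRNA seed were examined because a guide can lower transcripts other than its target. The letters GATCAGA (siRNA 1) and TTGACAT (siRNA 2), the reverse complements of the seeds, were searched on the sense strand of the longest coding transcript. Either was found in 929 of 2433 tested genes with such a transcript (38.2%). Of these 929 genes, 2 were called higher (Cdkn1a and Cyb5r3) and 5 lower (Bnip3, Ctsl, Farsb, Psip1 and Snw1), beside 10 higher and 14 lower among the 1504 genes without a match. Their median log2 fold change from nt was 0.02, beside 0.07 for genes without a match. Within the 3′ UTR 514 of 2371 genes held a match (21.7%), 2 were higher and 2 lower, beside 10 higher and 13 lower among the 1857 genes without one, and the median was 0.07 beside 0.03. A match is a description of letters and not of a site bound by the guide.

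A time course score was formed for each library as the mean log2 CPM of 321 genes higher at Day06 than Day00 minus that of 347 genes lower (668 genes, 22.2% of those tested). It was 1.30, 1.14 and 1.37 in siIrx1 and 1.46, 1.36 and 1.65 in nt, lower in siIrx1 by 0.158, 0.225 and 0.277 in pools 1 to 3. The Mock libraries ranged from 1.25 to 1.56, Day06 from 1.14 to 1.31 and Day00 from -1.53 to -1.34. The siIrx1 libraries overlapped nt, Mock and Day06, while the nt libraries all lay above Day06. Among 33 siRNAs the siIrx1 mean was rank 12 from the lowest, which belonged to siWdr5 at 0.517. Across the 3013 genes the siIrx1-nt and Day06-Day00 log2 fold changes, which share no library, had a Pearson r of -0.180 and a Spearman rho of -0.129, across genes, which are not independent replicates. Over genes with a mean of at least 5 counts Pearson r was -0.0966, and for siIrx1-Mock over all genes it was -0.114. In replicates 1, 2 and 3 alone the siIrx1-nt r was -0.0666, -0.0821 and -0.125.

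**Figure D5:**
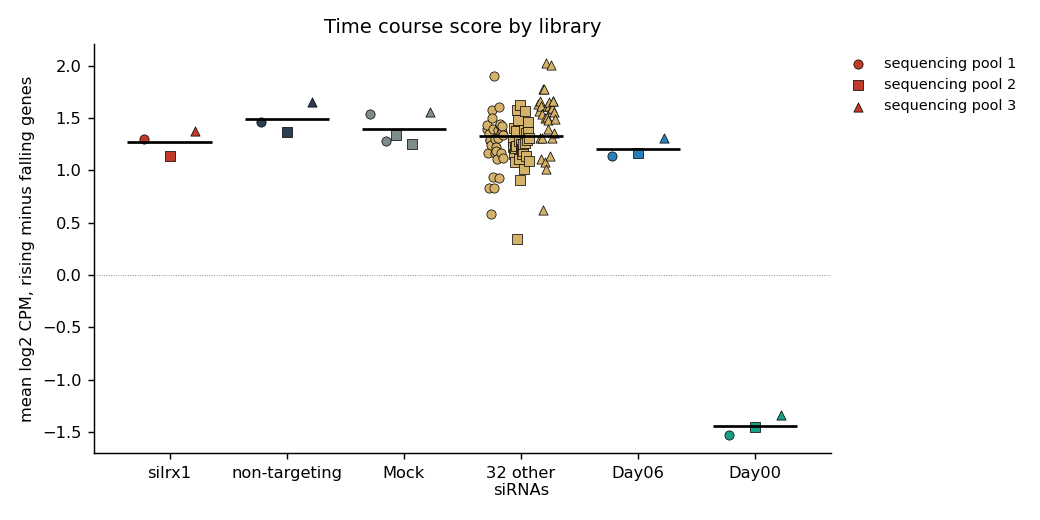
Time course score of each library (mean log2 CPM of genes that rise minus genes that fall from Day00 to Day06) by group, with symbols for the sequencing pool and lines for group means. The siIrx1 libraries, at 1.14 to 1.37, fall within the range of the transfected libraries and far from Day00.

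Against the untransfected Day06 libraries siIrx1 differed in 700 genes (23.2%), 438 higher (14.5%) and 262 lower (8.7%), beside 802 for nt (26.6%) and 870 for Mock (28.9%). Over the 33 siRNAs this number ranged from 163 to 1095 with a median of 592, and siIrx1 was rank 24 from the fewest. These comparisons share the Day06 libraries and include the effect of transfection itself. Of the 15 mitochondrially encoded genes 8 were higher in siIrx1 than at Day06 and none lower, although mt-Rnr1, mt-Nd1, mt-Nd2, mt-Nd4 and mt-Nd5 were not called there. Bnip3 remained higher than Day06 by 1.85 on the log2 scale in siIrx1 and by 3.00 in nt.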

How the data were processed

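The authors mapped CEL-Seq2 reads with Bowtie2 to mm10 and counted unique molecular identifiers per gene with the CEL-Seq2 pipeline and GENCODE vM13. Raw counts were deposited without scaling. A second deposited table holds log2 CPM that the authors normalized with size factors and from which they regressed the batch. Column names gave the condition of a library, and each number is a replicate whose barcoded libraries share a sequencing file per the labels (a pool). The pool was kept as a block. Deviations of siIrx1 and nt libraries of a number correlated at 0.0816, 0.140 and 0.290, and the median was 0.0981 for pairs of libraries of the same number and -0.0685 otherwise. One Mock column of pool 3, with 6403 counts, did not match its log2 column (r = 0.0136 against 0.986) and was left out.

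The 127 libraries in both tables were fitted together in edgeR 4.0.16 with TMM scaling, filterByExpr by condition and terms for condition and replicate (83 residual degrees of freedom, common dispersion 0.0158). Total counts ran from 29656 to 235292 per library, and TMM factors from 1.09 to 1.15 in siIrx1 and from 0.923 to 0.984 in nt. CPM and summed list levels refer to the TMM-scaled total of tested genes, and mitochondrial shares to all counts. Log2 CPM used a prior count of 2. An SE was taken as the fold change over the root of the F value. The fit was also run on simulated counts drawn without pool effects, so that run does not bear on the replicate block. Named genes were called against nt, with a mean of at least 50 CPM in siIrx1 or nt, the same sign in each replicate and no predicted or pseudogene symbol, at most 12 per direction, plus the Irx genes and called list members. Hsp90aa1, Npm1, Malat1, Gm42418, Ndufa4, Tpi1, Gapdh, Ldha, contractile genes and pseudogene copies were named after their values were seen. The comparison, gene lists and siRNA checks were chosen with earlier results of these data known. DESeq2 1.42.0 and limma 3.58.1 served as alternatives. Copies were searched with blastn 2.17.0 in GENCODE vM21 transcripts, and siRNA sequences came from the supplementary siRNA list of the study. A result on the list of Iroquois genes and their partners is not reported here.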

Additional observations from a re-analysis of the deposited data

Results flagged for a closer look

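One of 31 values examined in the 5 Mock libraries stood apart from the others. mt-Nd5 was at 9150 CPM in Mock replicate 3, where the next lowest Mock library had 13322 CPM and the highest 14845 CPM. The gap to the nearest library was 0.733 of the whole range, above the 95% critical value of 0.71 for 5 values, which chance exceeds in about 1 of 20 groups. The siIrx1 and nt libraries of the same pool, at 6687 and 10873 CPM, were also the lowest of their groups for mt-Nd5.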

How the results depend on the processing

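The count against nt stayed within 1.5 times of 61 in 9 of 19 alternatives, that against Mock of 38 in 11 of 20, and that against the other siRNAs of 41 in 6 of 15. Without a low-count filter 24, 8 and 77 genes were called against nt, Mock and the other siRNAs, from 30778 genes tested. With no replicate block the counts were 3, 8 and 4, and 2, 5 and 3 mitochondrially encoded genes were lower. limma on the deposited log2 values called 0, 0 and 4 genes (581 and 637 at an unadjusted p under 0.05 for nt and Mock), with 0 mitochondrially encoded genes lower in each. The 4 were Gm10073, Gm10327, Gm11478 and Ndufa4. With only the libraries compared, 114 genes were called against nt, and 55 of the 61 were among them. With RLE size factors 54 of the 61 were kept, and with DESeq2 51. An alternative chosen after seeing the data, without mitochondrially encoded genes, gave 21 against Mock. Leaving out replicates or single libraries gave 13 to 54 genes against nt, 8 to 46 against Mock and 8 to 16 against the other siRNAs, and 4 to 10 and 4 to 7 mitochondrially encoded genes lower than Mock and the other siRNAs. Against Mock without siIrx1 replicate 1 and 2 it was 6 each. Without a filter 4 were lower than Mock. The correlation beside the time course was -0.0966 over genes with a mean of at least 5 counts, the score difference from nt was -0.160 with a prior count of 5, and the seed-match median was 0.0709 in the 3′ UTR, also added after seeing the data. The mitochondrial share differed from Mock by -8.24 percentage points with Mock averaged per pool (exact permutation p = 0.1, added after seeing the data). The causes were not tested. No named gene changed sign. Totals of 65473 to 143156 counts per siIrx1 or nt library limit what can be detected for genes as sparse as Irx1.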
